A study of Mus musculus with 8 samples.

Results

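The SLC25 family holds the carriers of the mitochondrial inner membrane, and its transcripts were compared between murine bone marrow megakaryocytes (MKs) cultured alone and MKs cocultured with mesenchymal stem cells (MSCs). Members were taken as every gene of the deposited count table whose symbol reads Slc25a followed by a number, which gave 38 of 13387 genes. Genes of the family under other symbols, such as Ucp2, Mtch1 and Mtch2, were not counted as members. They are counted below with the other mitochondrial transporters. All cells were from wild-type C57BL/6 mice, with no transgene in either group. Of the 8 bulk RNA-Seq libraries, 4 came from MKs that received no treatment (replicates 1 to 4) and 4 from MKs that shared the well with primary marrow MSCs sorted as CD45-Ter119-CD31-CD51+CD140a+ cells (replicates 1 to 4). Cultures lasted 18 hours, and the labels give no age for the mice. According to the methods, MKs were enriched with CD41 beads, and each sample pooled several culture wells. The labels give the cells as MKs that had been separated from platelets, whereas the methods speak of the RNA of platelets made in culture. A legend of the study counts mice as its replicates, but the labels do not tie a library to an animal or a culture, so p-values measure the spread between these libraries, which may be technical.

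Few solutes cross the mitochondrial inner membrane unaided, and SLC25 carriers let selected ones through, mostly by exchanging 1 solute for another. Through them ADP and phosphate enter for ATP synthesis and ATP leaves, and reducing equivalents, amino acids, cofactors and iron are passed between the cytosol and the matrix. The carriers are encoded by nuclear genes, are made in the cytosol, and are inserted into the inner membrane by the TIM22 complex. MKs and the platelets they shed draw ATP from mitochondria as well as from glycolysis, and the study examined mitochondria and energy metabolism of MKs in contact with MSCs.

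Depth and the cells in the libraries bear on every value. Library totals ran from 4939874 to 12523616 counts, and 3 counts, the level that a count of 0 still allows, correspond to between 0.284 and 0.662 CPM (counts relative to the scaled library total), which covers counting error only. Counts were found for 10735 genes in replicate 3 of the cocultures and for 12406 to 13193 genes in the other libraries, so results that rest on that library are also given without it. The summed level of 15 MK and platelet markers was 2378 to 2631 CPM in MKs alone and 1814 to 2392 CPM in cocultures, where Gp6 was at 0 in replicate 3. MSC markers (10 genes in the table) summed to 42.8 to 71.1 CPM in MKs alone and 1242 to 4122 CPM in cocultures, macrophage markers (11 genes) to 173 to 236 and 1142 to 1530 CPM, neutrophil markers (10 genes) to 79580 to 82635 and 4466 to 9779 CPM, erythroid markers (8 genes) to 38.8 to 62.8 and 19.6 to 93.8 CPM, and B cell markers (8 genes) to 882 to 942 and 91.1 to 233 CPM. By edgeR's quasi-likelihood test, 7 of 8 MSC markers and 9 of 10 macrophage markers tested were called higher in cocultures, and 10 of 10 neutrophil markers, 4 of 8 B cell markers and 1 of 15 MK and platelet markers lower. Marco was at 0 in every library of MKs alone, and Lepr and Kitl were at 0 in replicate 3 of the cocultures. The part of these other cells in the carrier results was not tested, and in bulk RNA fewer cells of a type and less RNA per cell cannot be told apart.

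In cocultures 3 members were called higher and none was called lower. They were the ADP/ATP carrier Slc25a4, the glutathione carrier Slc25a39 and the citrate carrier Slc25a1. A gene was called when its groups differed by 2-fold or more, when edgeR's quasi-likelihood test gave a p no higher than 0.05 after Benjamini-Hochberg adjustment over the 11722 genes past the filter on low counts, and when either group averaged 1 CPM or more. Of the 38 members 37 passed the filter. The 3 called higher are 8.11% of these, where 13.2% of all genes tested were called higher, and the count of 0 called lower stands against 7.31% of all genes. At an unadjusted p under 0.05 by edgeR, 7 members had positive and 0 had negative log2 fold changes. The matching count over all genes is not given here. DESeq2 called 4 members higher and 0 lower, where over all genes it called 2296 higher and 1345 lower. It gave no adjusted p for Slc25a26, Slc25a35 and Slc25a45. Its number of genes tested is not given here, so these counts were not turned into shares. DESeq2 added Slc25a25 (log2 fold change 1.61, DESeq2 adjusted p = 0.0451). Both shares of carriers called by edgeR lay below those of all genes, but with 37 members the gaps amount to few genes. Whether the shares differ was not tested. The log2 fold changes by edgeR ran from -1.41 for Slc25a53 to 2.71 for Slc25a39. Of these 24 were positive (64.9%, against 51.3% of all genes tested) and 13 negative. Their median was 0.44 against 0.034 over all genes tested.

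The pattern differed without replicate 3 of the cocultures. Then 17 members were positive (45.9%, against 51.2% of all genes) and 20 negative, and the median log2 fold change was -0.070 against 0.030 over all genes. By edgeR's quasi-likelihood test without that library, 5 members were called higher (13.5% of the 37 tested, against 20.6% of all genes), and 2 were called lower (5.41%, against 15.4% of all genes). The 5 were Slc25a1, Slc25a4, Slc25a10, Slc25a39 and Slc25a43, and the 2 were Slc25a23 and Slc25a53. Slc25a1, Slc25a4 and Slc25a39 were therefore called with and without it.

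Promoters are shown here because they belong to the 3 carriers that rose and to Slc25a5, the partner of Slc25a4, whose change did not pass the test. Each is the RefSeq window on GRCm38.p6 from 250 bases before to 50 bases after the annotated start, written 5′ to 3′ on the strand of the gene. That start can differ from the start of the GENCODE M21 gene. The window of Slc25a39 lies wholly inside its GENCODE gene, which starts at 102407946. Most of the Slc25a4 window lies inside its gene, which starts at 46211284. The Slc25a5 window ends before its gene starts at 36795651. Capitals mark the CCAAT box, the GC box (GGGCGG), the E-box (CACGTG) and an ETS-type site (CCGGAAG), searched on both strands and counted separately where they overlap.
Slc25a4, chr8:46211013-46211312, minus strand: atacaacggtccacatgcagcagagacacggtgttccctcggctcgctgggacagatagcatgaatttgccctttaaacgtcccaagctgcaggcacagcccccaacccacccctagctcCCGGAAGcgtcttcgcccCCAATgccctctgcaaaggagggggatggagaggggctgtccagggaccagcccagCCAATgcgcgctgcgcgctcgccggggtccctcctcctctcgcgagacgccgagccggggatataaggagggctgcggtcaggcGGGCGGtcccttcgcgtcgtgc
Slc25a5, chrX:36795347-36795646, plus strand: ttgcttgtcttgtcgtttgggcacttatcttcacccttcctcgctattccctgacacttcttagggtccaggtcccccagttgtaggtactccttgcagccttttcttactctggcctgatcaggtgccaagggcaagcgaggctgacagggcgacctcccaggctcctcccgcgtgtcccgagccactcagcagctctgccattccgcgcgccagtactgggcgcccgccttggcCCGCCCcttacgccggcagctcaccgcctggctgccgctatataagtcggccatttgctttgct
Slc25a39, chr11:102407468-102407767, minus strand: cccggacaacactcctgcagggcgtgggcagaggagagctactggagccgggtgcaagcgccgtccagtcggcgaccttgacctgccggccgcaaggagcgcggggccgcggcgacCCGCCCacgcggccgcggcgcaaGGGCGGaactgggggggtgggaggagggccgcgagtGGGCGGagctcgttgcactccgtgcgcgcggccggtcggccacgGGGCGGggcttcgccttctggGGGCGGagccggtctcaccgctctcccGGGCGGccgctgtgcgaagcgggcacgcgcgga
Slc25a1, chr16:17928170-17928469, minus strand: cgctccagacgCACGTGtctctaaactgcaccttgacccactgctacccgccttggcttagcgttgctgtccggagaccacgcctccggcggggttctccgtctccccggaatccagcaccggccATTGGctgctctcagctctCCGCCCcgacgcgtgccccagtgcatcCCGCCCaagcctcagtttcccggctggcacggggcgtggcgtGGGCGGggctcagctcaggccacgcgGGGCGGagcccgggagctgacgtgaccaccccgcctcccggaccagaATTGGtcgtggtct

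The windows of Slc25a4 and Slc25a5 differ in these letters, but they lie at unlike places relative to the GENCODE genes, so the counts do not compare like positions. That of Slc25a4 held 2 CCAAT boxes, 1 ETS-type site and 1 GC box, and that of Slc25a5 held 1 GC box. The window of Slc25a39 held 6 GC boxes and 45 CpG dinucleotides, and that of Slc25a1 held 4 GC boxes, 2 CCAAT boxes and 1 E-box among 30 CpG. The windows of Slc25a4 and Slc25a5 held 25 and 18 CpG. A RefSeq window was found for 29 of the 38 members, with 38 windows in all. A GC box was in 92.1% of these windows and in 35.7% of all 32851 mouse windows, and the median CpG number was 17 against 7. CCAAT was in 50.0% of member windows and 37.4% of all, CACGTG in 18.4% and 7.15%, and CCGGAAG in 15.8% and 8.86%. None of the 38 windows held TATAAA or the ERR letters TCAAGGTCA, which were in 13.6% and 0.423% of all windows. The set of all windows was not limited to genes of the count table, and some members have more than 1 window. The gaps between these shares therefore cannot be read as particular to the carriers. These are matches of letters and say nothing of factor binding.

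The adenine nucleotide carriers, which exchange cytosolic ADP for matrix ATP, gave the clearest result. Slc25a4, known as ANT1 and the main form of heart and muscle, is on chromosome 8 from 46206797 to 46211284, and Slc25a5, known as ANT2 and the main form of dividing cells, is on chromosome X from 36795651 to 36798807 (GENCODE M21). Slc25a4 was at 171, 149, 100 and 150 CPM in replicates 1 to 4 of MKs alone and at 674, 603, 867 and 585 CPM in cocultures. Every coculture lay far above every library of MKs alone, and replicate 3 was the highest, at 867 CPM against 585 to 674 CPM in the other cocultures. Slc25a4 rose 4.79-fold, with a log2 fold change of 2.26 (SE 0.231, edgeR adjusted p = 0.000202), and 4.30-fold without replicate 3 (edgeR adjusted p = 9.89e-08). Slc25a5 was at 1942, 1399, 1219 and 1539 CPM in MKs alone and at 1521, 1441, 1459 and 1439 CPM in cocultures. The 4 cocultures lay inside the range of MKs alone, with a log2 fold change of -0.058 (SE 0.190, edgeR adjusted p = 0.859). The third gene of this class, Slc25a31, was not analysed here.

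Slc25a4 therefore took a larger share of the ADP/ATP carrier transcripts in cocultures. Of the summed CPM of Slc25a4 and Slc25a5, Slc25a4 made up 8.08%, 9.64%, 7.60% and 8.87% in MKs alone and 30.7%, 29.5%, 37.3% and 28.9% in cocultures. Per kilobase of transcript the share was 5.03% to 6.43% in MKs alone and 20.8% to 27.7% in cocultures. The ratio of Slc25a4 to Slc25a5 counts within a library, which no scaling of libraries can move, was 0.088, 0.107, 0.082 and 0.097 in MKs alone and 0.443, 0.418, 0.594 and 0.407 in cocultures. Its log2 value differed by 2.30 between groups, with no overlap (p = 0.0286 by a two-sided exact permutation test, which can go no lower with 4 against 4, and 0.1 after Benjamini-Hochberg adjustment over 7 pairs of carriers). That difference did not pass the adjustment. No stretch of 31 bases is shared between the annotated transcripts of the 2 genes, but 49.4% of such stretches in Slc25a5 recur in 13 other genes. The pseudogene Gm5560 alone holds 30.4% of all stretches of Slc25a5. The counts of Slc25a5 are therefore uncertain, to a degree that these shares do not measure. Slc25a4 shares none with any other gene.

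**Figure D1:**
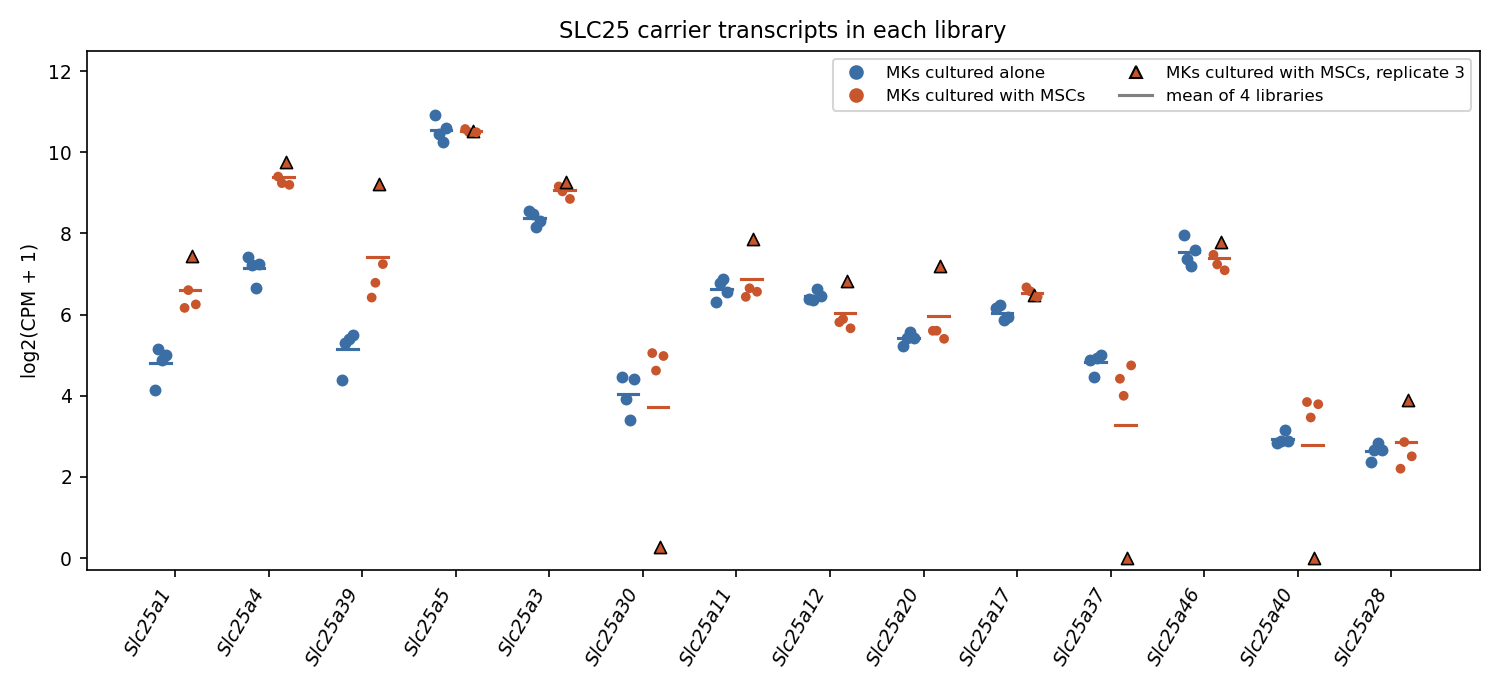
SLC25 carrier transcripts in each library, as log2(CPM + 1), for the 3 carriers called higher, the highest member of each substrate class, and Slc25a40 and Slc25a28. Points are libraries, triangles are replicate 3 of the cocultures, and bars are means of 4 libraries. The cocultures of Slc25a1, Slc25a4 and Slc25a39 all lie above MKs alone, those of Slc25a5 lie within their range, and Slc25a37 and Slc25a40 are at 0 in replicate 3 of the cocultures.

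Adenine nucleotide and phosphate carriers led the family in level. On the scale of CPM per kilobase of transcript, which allows genes to be compared, MKs alone had 1230 ± 248 for Slc25a5, 225 ± 27.7 for Slc25a3, 74.0 ± 15.5 for Slc25a4, 58.0 ± 9.90 for Slc25a11 and 52.1 ± 12.3 for Slc25a24 (SD, n = 4). The ranges of these libraries do not overlap between Slc25a5 and Slc25a3 or between Slc25a3 and Slc25a4, and do overlap among Slc25a4, Slc25a11 and Slc25a24. In cocultures the order began with Slc25a5 at 1181 ± 30.9, Slc25a3 at 366 ± 45.1 and Slc25a4 at 354 ± 66.9 (SD, n = 4), and the ranges of Slc25a3 and Slc25a4, 310 to 416 and 304 to 450, overlapped. Slc25a4 thus lay in the range of the phosphate carrier in cocultures, and far below it in MKs alone. Slc25a39 was the fourth there at 143 ± 147, a mean that replicate 3 carried, since it was at 363 in that library and at 51.4 to 91.5 in the other cocultures. Over all 38 members the summed level was 3814, 3039, 2724 and 3183 CPM in MKs alone and 4046, 3791, 5351 and 3791 CPM in cocultures. Slc25a5 made up 44.8% to 50.9% of that sum in MKs alone and 27.3% to 38.0% in cocultures, and Slc25a4 made up 3.68% to 4.91% and 15.4% to 16.7%.

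Among the ATP-Mg and phosphate carriers, Slc25a3 brings phosphate into the matrix for ATP synthesis. It was at 376, 358, 285 and 316 CPM in MKs alone and at 569, 523, 617 and 460 CPM in cocultures. The groups did not overlap, and its log2 fold change of 0.70 (SE 0.176, edgeR adjusted p = 0.0209) passed the p threshold but not the 2-fold limit. It was the only member besides the 3 called with an adjusted p at or under 0.05. The other genes of this class in the table, Slc25a23, Slc25a24 and Slc25a25, exchange ATP-Mg for phosphate under the control of calcium. Slc25a24 was the most abundant of these at 179 ± 42.3 CPM in MKs alone and 183 ± 29.0 CPM in cocultures (SD, n = 4). Slc25a25 had a log2 fold change of 1.60 (edgeR adjusted p = 0.114), which replicate 3 carried with 45.4 CPM against 7.77 to 13.01 CPM in the other cocultures, and of 0.74 (edgeR adjusted p = 0.0791) without that library. Slc25a23 was low, at 3.32 ± 1.46 CPM in MKs alone and 1.49 ± 0.956 CPM in cocultures, with a log2 fold change of -1.14 (edgeR adjusted p = 0.277) and of -1.54 (edgeR adjusted p = 0.0303) without replicate 3.

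Carriers of di- and tricarboxylates move the intermediates of the TCA cycle. Slc25a1 exports citrate, the source of cytosolic acetyl-CoA for lipid synthesis, and lies on chromosome 16 from 17925223 to 17928219. It was at 16.8, 34.5, 28.6 and 30.9 CPM in MKs alone and at 70.7, 96.1, 172 and 75.1 CPM in cocultures. The lowest coculture lay above the highest library of MKs alone, and replicate 3 was the highest. Slc25a1 rose 3.73-fold, with a log2 fold change of 1.90 (SE 0.367, edgeR adjusted p = 0.00643), and 2.85-fold without replicate 3 (edgeR adjusted p = 2.81e-05). Slc25a10, the dicarboxylate carrier that exchanges malate and succinate for phosphate, was at 3.97, 6.39, 10.5 and 10.4 CPM in MKs alone and at 13.1, 24.2, 0.942 and 23.2 CPM in cocultures. Replicate 3 was the lowest of all 8 libraries, and the other 3 cocultures lay above MKs alone. Its log2 fold change was 0.97 (edgeR adjusted p = 0.445), and 1.32 (edgeR adjusted p = 0.00272) without that library. Slc25a11, the oxoglutarate carrier of the malate-aspartate shuttle, was at 78.6 to 116 CPM in MKs alone, at 85.6, 99.3 and 93.5 CPM in replicates 1, 2 and 4 of the cocultures, and at 230.4 CPM in replicate 3. Its log2 fold change was 0.36, and -0.12 without replicate 3.

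The other arm of the malate-aspartate shuttle is formed by the aspartate-glutamate carriers Slc25a12 (aralar) and Slc25a13 (citrin). Neither passed the test, and they lay on opposite sides of 0. Slc25a12 was at 83.0, 81.1, 98.1 and 86.9 CPM in MKs alone and at 55.2, 58.2, 113 and 49.6 CPM in cocultures. Replicates 1, 2 and 4 of the cocultures lay below every library of MKs alone and replicate 3 lay above, which gave a log2 fold change of -0.34 (edgeR adjusted p = 0.444), and of -0.70 (edgeR adjusted p = 0.00218, under the 2-fold limit) without replicate 3. Slc25a13 was at 20.97, 11.4, 7.43 and 10.2 CPM in MKs alone and at 19.1, 18.1, 46.6 and 17.3 CPM in cocultures, with a log2 fold change of 1.02 (edgeR adjusted p = 0.183), and of 0.54 (edgeR adjusted p = 0.138) without replicate 3. The ratio of Slc25a12 to Slc25a13 counts was 3.94, 7.06, 13.1 and 8.42 in MKs alone and 2.89, 3.21, 2.43 and 2.85 in cocultures. The ratio was lower in every coculture, replicate 3 included, with a log2 difference of -1.40 (p = 0.0286 by the two-sided exact permutation test, and 0.1 after Benjamini-Hochberg adjustment over 7 pairs), which did not pass the adjustment. Slc25a22, a glutamate carrier, was at 7.02 ± 1.25 CPM in MKs alone and 10.99 ± 6.52 CPM in cocultures (SD, n = 4), with a log2 fold change of 0.64, and of 0.94 (edgeR adjusted p = 0.0126, under the 2-fold limit) without replicate 3. Its partner Slc25a18 was not analysed here.

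**Figure D2:**
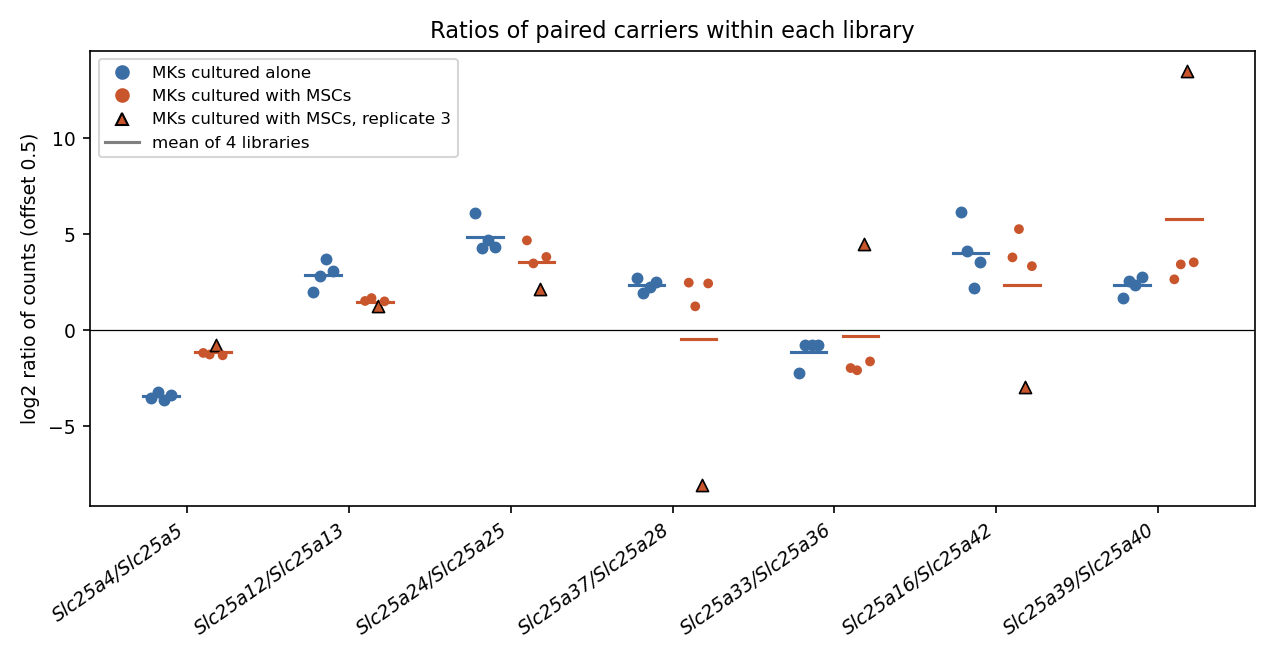
Log2 ratio of the counts of paired carriers in each library, with 0.5 added to each count. Points are libraries, triangles are replicate 3 of the cocultures, and bars are means of 4 libraries. The groups separate for Slc25a4/Slc25a5 and for Slc25a12/Slc25a13, and replicate 3 of the cocultures lies far from the other cocultures for Slc25a37/Slc25a28, Slc25a33/Slc25a36, Slc25a16/Slc25a42 and Slc25a39/Slc25a40.

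Among the carriers of other amino acids and of glutathione, Slc25a39 rose. This carrier brings glutathione into the matrix, where glutathione detoxifies peroxides and serves iron-sulfur proteins. Its gene lies on chromosome 11 from 102402985 to 102407946, with the microRNA gene Mir6930 overlapping it on the same strand. It was at 19.9, 38.7, 41.5 and 43.9 CPM in MKs alone and at 84.5, 109, 597 and 151 CPM in cocultures. Every coculture lay above every library of MKs alone, and replicate 3 lay far above the other cocultures. Slc25a39 rose 6.53-fold, with a log2 fold change of 2.71 (SE 0.649, edgeR adjusted p = 0.0173), and 3.12-fold without replicate 3, with a log2 fold change of 1.64 (SE 0.250, edgeR adjusted p = 3.58e-05). With the 4 cocultures kept and any library of MKs alone left out, the edgeR adjusted p lay between 0.0502 and 0.0620, just past the threshold.

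Its partner Slc25a40, linked to the same substrate, was not detected in replicate 3. Slc25a40 was at 6.18, 6.39, 7.98 and 6.34 CPM in MKs alone and at 13.4, 10.03, 0 and 12.8 CPM in cocultures. The count of 0 in replicate 3 allows up to 0.314 CPM there, and the other 3 cocultures lay above MKs alone. Its log2 fold change was 0.43 (edgeR adjusted p = 0.817), and 0.82 (edgeR adjusted p = 0.0176, under the 2-fold limit) without replicate 3. Slc25a44, tied to branched-chain amino acids, was higher in every coculture (32.4 to 56.8 CPM) than in any library of MKs alone (17.4 to 29.3 CPM), with a log2 fold change of 0.87 (edgeR adjusted p = 0.0895), and of 0.65 (edgeR adjusted p = 0.0236, under the 2-fold limit) without replicate 3. The glycine carrier Slc25a38, which serves heme synthesis, the ornithine carrier Slc25a15 of the urea cycle, and Slc25a45 had log2 fold changes of 1.06, 0.60 and 0.94, and of -0.15, -0.070 and -0.50 without replicate 3. Their levels in that library were 66.3, 50.3 and 97.9 CPM, against at most 18.9, 19.9 and 20.5 CPM in any other library. None of the 3 passed the test with or without it. Slc25a29, a carrier of basic amino acids, was at 4.06 ± 1.91 CPM in MKs alone and 2.47 ± 1.81 CPM in cocultures (SD, n = 4), with a count of 0 in replicate 3. Its log2 fold change was -0.73, and -0.37 without that library.

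Slc25a20 exchanges acylcarnitine for carnitine and thereby brings fatty acids to β-oxidation. It was at 36.6, 41.6, 46.6 and 42.1 CPM in MKs alone and at 47.5, 47.5, 147 and 41.3 CPM in cocultures. Replicates 1, 2 and 4 lay close to MKs alone and replicate 3 lay far above, with a log2 fold change of 0.76 (edgeR adjusted p = 0.238), and of 0.10 (edgeR adjusted p = 0.651) without replicate 3.

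The carriers of cofactors and pyrimidine nucleotides formed the largest class, and none of its 9 members passed the test. Slc25a17, the carrier of coenzyme A and related cofactors in the peroxisome membrane, was at 70.8, 73.8, 57.7 and 59.9 CPM in MKs alone and at 101, 94.3, 88.0 and 85.7 CPM in cocultures. The groups did not overlap, but the difference was small at a log2 fold change of 0.49 (edgeR adjusted p = 0.0941), and 0.50 without replicate 3. The NAD+ carrier Slc25a51 was at 45.1 to 69.1 CPM in MKs alone and 59.1 to 62.9 CPM in cocultures, with overlap. The carrier of folate and FAD, Slc25a32, was lower in every coculture, at 13.3, 10.6, 0.209 and 14.1 CPM, than in MKs alone, at 16.3 to 26.2 CPM. Its log2 fold change of -1.19 (edgeR adjusted p = 0.369) was -0.79 (edgeR adjusted p = 0.0116, under the 2-fold limit) without replicate 3. The S-adenosylmethionine carrier Slc25a26 had a log2 fold change of 2.39 (edgeR adjusted p = 0.144) that rested on replicate 3, with 67.6 CPM against 2.996 to 6.24 CPM in the other cocultures, and had 0.060 without it.

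The pyrimidine nucleotide carriers Slc25a33 and Slc25a36 diverged in replicate 3 of the cocultures. Slc25a33 was at 32.0 to 47.0 CPM in MKs alone, at 22.3, 15.9 and 27.2 CPM in replicates 1, 2 and 4 of the cocultures and at 58.4 CPM in replicate 3. Slc25a36 was at 69.0 to 149 CPM in MKs alone, at 86.7, 67.2 and 83.6 CPM in replicates 1, 2 and 4 and at 2.51 CPM in replicate 3. The first thus lay above all other libraries in replicate 3 and the other below them. Neither passed the test (log2 fold changes -0.42 and -0.64), and without replicate 3 Slc25a33 had -0.95 (edgeR adjusted p = 0.00199, just under the 2-fold limit) and Slc25a36 had -0.25. The carriers tied to coenzyme A, Slc25a16 and Slc25a42, had log2 fold changes of -0.63 and -0.49, and Slc25a16 had 1 count, 0.105 CPM, in replicate 3 against 18.4 to 27.6 CPM in the other cocultures. Without that library they had -0.22 and -0.47.

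Neither mitoferrin, the carriers that bring iron to the matrix for heme and iron-sulfur clusters, passed the test. Slc25a37 (mitoferrin 1, the main form of erythroid cells) was at 28.7, 21.03, 29.7 and 31.1 CPM in MKs alone and at 20.4, 15.0, 0 and 25.8 CPM in cocultures, with a log2 fold change of -0.85 (edgeR adjusted p = 0.608), and of -0.46 without replicate 3. Slc25a28 (mitoferrin 2) was at 4.19 to 6.10 CPM in MKs alone and at 3.602, 6.25, 13.9 and 4.68 CPM in cocultures, with a log2 fold change of 0.44 (edgeR adjusted p = 0.630), and of -0.15 without replicate 3. The pair went in opposite directions in replicate 3 and kept close to MKs alone in the other cocultures, where the difference of their log2 ratio from MKs alone was -0.31, against -2.84 with all 4 libraries.

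The remaining members stayed below the threshold with all libraries. Of the uncoupling protein-like genes, Slc25a30 was at 9.54 to 20.97 CPM in MKs alone and at 32.1, 23.6, 0.209 and 30.5 CPM in cocultures, with a log2 fold change of 0.42, and of 0.83 (edgeR adjusted p = 0.0145, under the 2-fold limit) without replicate 3. Slc25a14 had a log2 fold change of -0.90 with a count of 0 in replicate 3 and of -0.48 without that library, and Slc25a27 had between 0 and 11 counts in a library and was not tested. Among genes with no substrate assigned here, Slc25a46, a protein of the outer membrane that acts in mitochondrial dynamics, was at 188 ± 44.4 CPM in MKs alone and 170 ± 37.0 CPM in cocultures (SD, n = 4). Slc25a53 was at 28.9, 23.3, 11.4 and 18.9 CPM in MKs alone and at 11.9, 6.77, 0 and 12.3 CPM in cocultures, with a log2 fold change of -1.41 (edgeR adjusted p = 0.379), and of -1.01 (edgeR adjusted p = 0.0130) without replicate 3. Slc25a43, a neighbour of Slc25a5 on chromosome X, was at 1.63 to 3.97 CPM in MKs alone and at 6.92, 6.64, 0.419 and 8.33 CPM in cocultures, with a log2 fold change of 1.08 (edgeR adjusted p = 0.392), and of 1.46 (edgeR adjusted p = 0.00423) without replicate 3. Slc25a35 was at 30.3 CPM in replicate 3 and at 2.21 to 7.21 CPM in every other library, with a log2 fold change of 0.98, and of -0.76 without replicate 3. Of its 31-base stretches 27.5% recur in other genes, nearly all in the overlapping gene Rangrf.

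**Figure D3:**
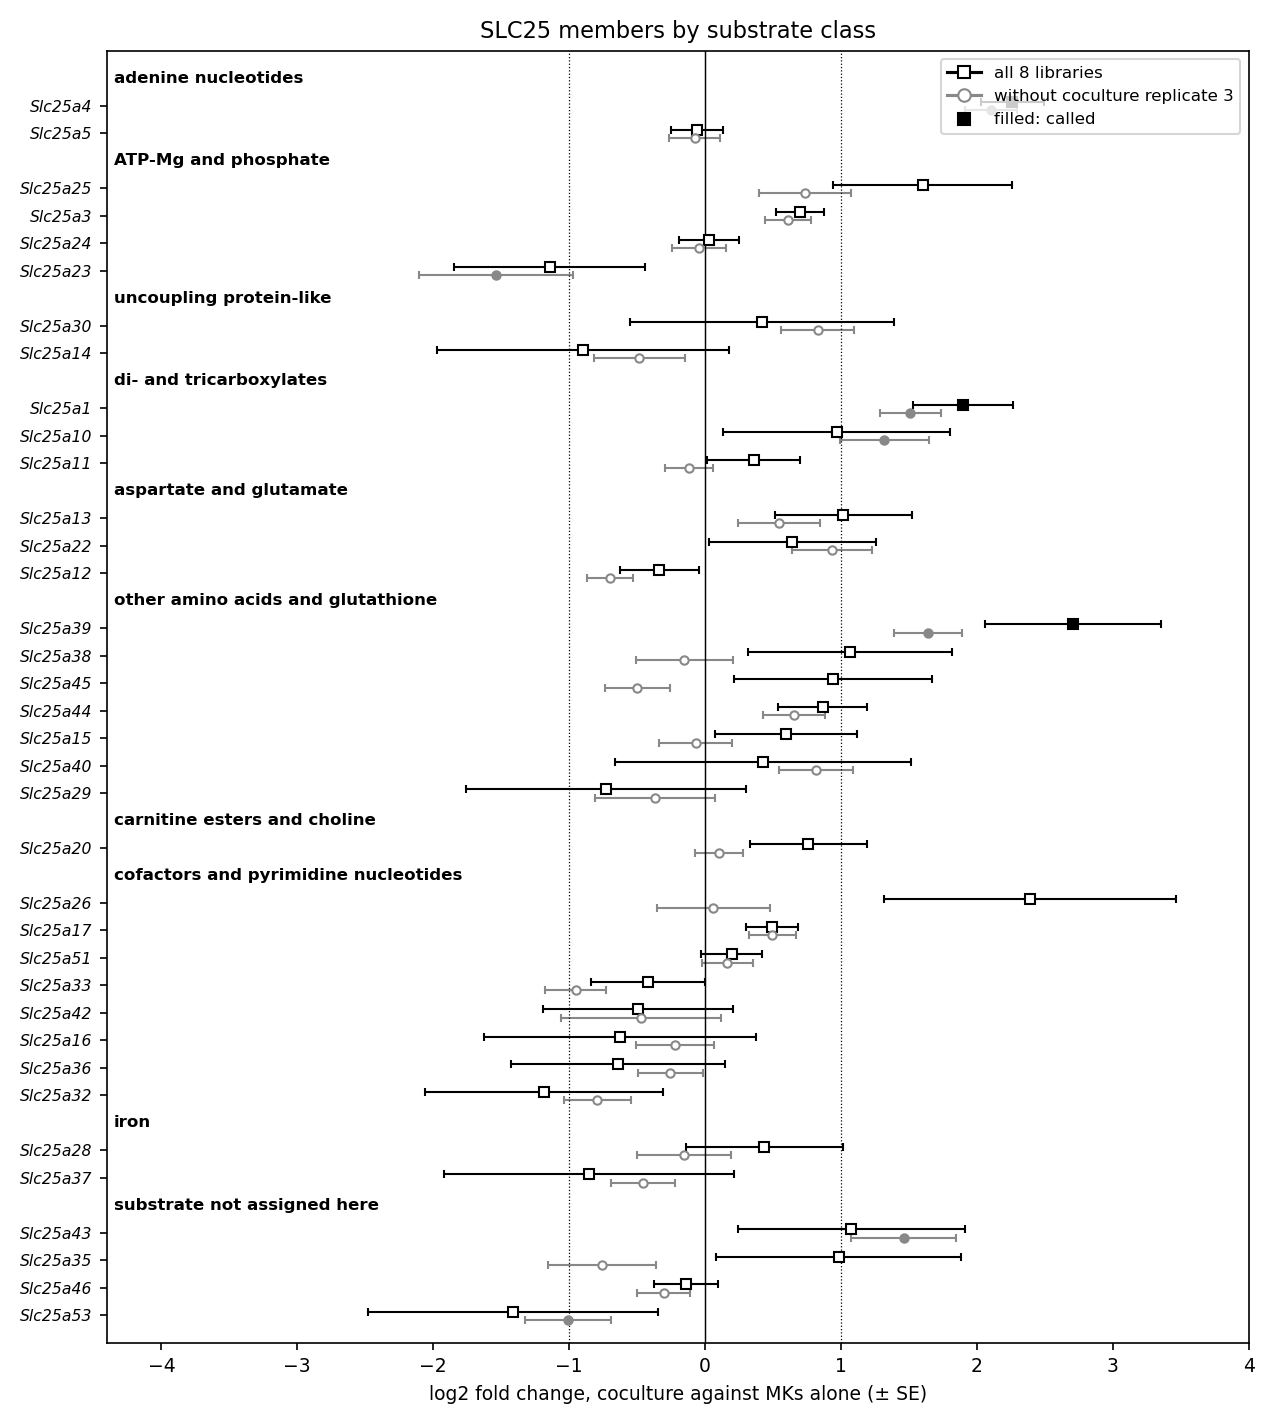
Log2 fold change of coculture against MKs alone for 36 of the 37 members tested, with its standard error, grouped by substrate. Black squares are fits with all 8 libraries, grey circles are fits without replicate 3 of the cocultures, and filled symbols passed the fold, p and level cutoffs. Slc25a1, Slc25a4 and Slc25a39 are filled in both fits, and Slc25a26, Slc25a35, Slc25a38 and Slc25a45 move most toward or past 0 without replicate 3.

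By ranges alone, the cocultures of 6 members all lay above MKs alone (Slc25a1, Slc25a3, Slc25a4, Slc25a17, Slc25a39 and Slc25a44) against 19.3% of all genes tested, and those of 1 lay below (Slc25a32), against 21.1% of all genes. The other 30 overlapped. Without replicate 3, 11 members lay above, against 30.7% of all genes, and 4 lay below (Slc25a12, Slc25a32, Slc25a33 and Slc25a45), against 25.4%. Slc25a10, Slc25a22, Slc25a30, Slc25a40 and Slc25a43 were those added on the higher side.

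Replicate 3 of the cocultures stood outside the range of the other 7 libraries for 30 of the 37 members tested, 18 above and 12 below. In each of the other libraries that number was 0 to 14. The 18 above are 48.6% of the members, against 32.8% of all genes tested, and the 12 below are 32.4%, against 45.5% of all genes. Slc25a14, Slc25a27, Slc25a29, Slc25a37, Slc25a40 and Slc25a53 were at 0 there, where the other libraries had at most 1 member at 0. The 7 members within the range of the others there were Slc25a5, Slc25a17, Slc25a23, Slc25a24, Slc25a42, Slc25a46 and Slc25a51. What set this library apart was not tested.

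**Figure D4:**
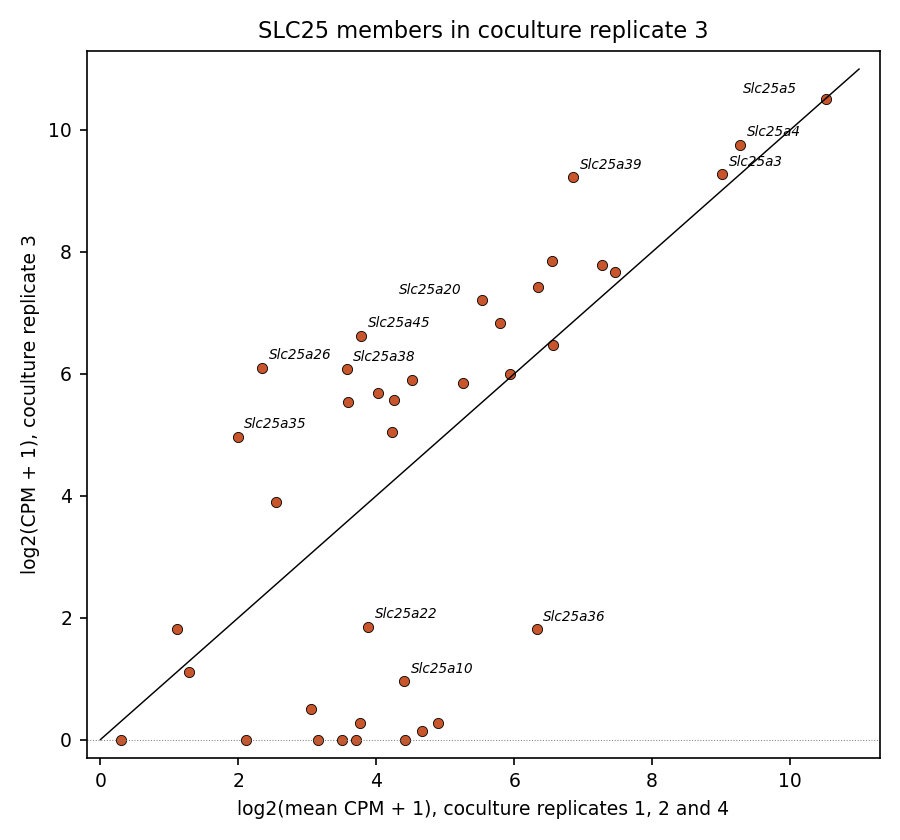
Level of each of the 38 members in replicate 3 of the cocultures against the mean of replicates 1, 2 and 4, both as log2(CPM + 1). Each point is a member, the line marks equal levels, and some members are named. Slc25a26, Slc25a39 and Slc25a45 lie well above the line, Slc25a36 lies far below, and 6 members lie at 0.

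Genes that work beside the carriers were counted in lists. Carrier precursors reach the inner membrane through the small TIM chaperones and the TIM22 complex. Of 9 such genes tested 2 were called higher by edgeR and 0 lower, where 13.2% and 7.31% of all genes were. Of the 9, 7 were positive, and the median log2 fold change was 0.77. The 2 were the small TIM proteins Timm13 and Timm8b. Timm13 was at 13.02, 22.4, 26.6 and 30.3 CPM in MKs alone and at 46.4, 57.1, 349 and 69.7 CPM in cocultures, a log2 fold change of 2.50 (SE 0.690, edgeR adjusted p = 0.0310). Timm8b was at 23.2 to 31.8 CPM in MKs alone and at 54.9, 50.7, 208 and 49.4 CPM in cocultures, a log2 fold change of 1.65 (SE 0.507, edgeR adjusted p = 0.0465). Both were highest in replicate 3. Without it Timm13 passed alone, at 1.29 (edgeR adjusted p = 0.000334), Timm8b was under the 2-fold limit at 0.81, and with any 1 library of MKs alone left out neither passed. Timm8a1, highest in the list by the mean over all 8 libraries though not within either group, had a log2 fold change of -0.088.

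Among 18 other mitochondrial transporters tested, 3 were called higher by edgeR and 0 lower, where 13.2% and 7.31% of all genes were. The number called higher was close to that background, and the median log2 fold change was 0.23. Sfxn3, a sideroflexin of the family that carries serine, was at 19.0, 31.2, 42.0 and 23.9 CPM in MKs alone and at 104, 104, 206 and 119 CPM in cocultures, a log2 fold change of 2.20 (SE 0.344, edgeR adjusted p = 0.00227). Mtch1, a carrier homolog of the outer membrane, had 1.78 (edgeR adjusted p = 0.0172) and Tmem14c, which serves heme synthesis, 1.06 (edgeR adjusted p = 0.0173). The outer membrane channel Vdac3, highest in the list by the mean over all 8 libraries, had 0.10. Passing the p threshold but under the 2-fold limit were Vdac1 at 0.71 (edgeR adjusted p = 0.0171) and Mpc2 at -0.78 (edgeR adjusted p = 0.0229). Without replicate 3 of the cocultures these had 0.64 and -0.92. Without replicate 3, Sfxn3 and Mtch1 were called higher at 1.87 and 1.15, and Ucp2, an uncoupling protein, and Sfxn5 were called lower at -1.33 (edgeR adjusted p = 0.000223) and -1.47 (edgeR adjusted p = 0.00222). Without replicate 1 or replicate 4 of MKs alone, 1 of the list was called higher.

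Enzymes that make or use what the carriers move were called higher in 4 of 22 cases by edgeR and lower in 0. Of all genes 13.2% were called higher and 7.31% lower. The median log2 fold change of these enzymes was 0.31. Got1, the cytosolic transaminase, was at 20.97, 18.2, 20.2 and 20.99 CPM in MKs alone and at 47.5, 39.1, 123 and 74.6 CPM in cocultures, a log2 fold change of 1.82 (SE 0.385, edgeR adjusted p = 0.00985). Got2, the transaminase of the matrix, had 1.40 (SE 0.256, edgeR adjusted p = 0.00480), and Mdh2, the malate dehydrogenase of the matrix, had 1.16 (SE 0.341, edgeR adjusted p = 0.0386). Mdh2 was the highest of the list by the mean over all 8 libraries, below Glud1 in MKs alone. Its cytosolic counterpart Mdh1 had 0.18 (edgeR adjusted p = 0.667), and -0.16 without replicate 3. Oat, the ornithine aminotransferase, had 1.36 (SE 0.210, edgeR adjusted p = 0.00203). All but Mdh2, at 0.77, were also called without replicate 3. The citrate synthase gene Cs, whose product Slc25a1 exports, had 0.74 (edgeR adjusted p = 0.0347), under the 2-fold limit. In each of the 3 lists the median lay above the 0.034 of all genes. MSC and macrophage markers rose in the same libraries, and their part in these values was not tested.

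**Figure D5:**
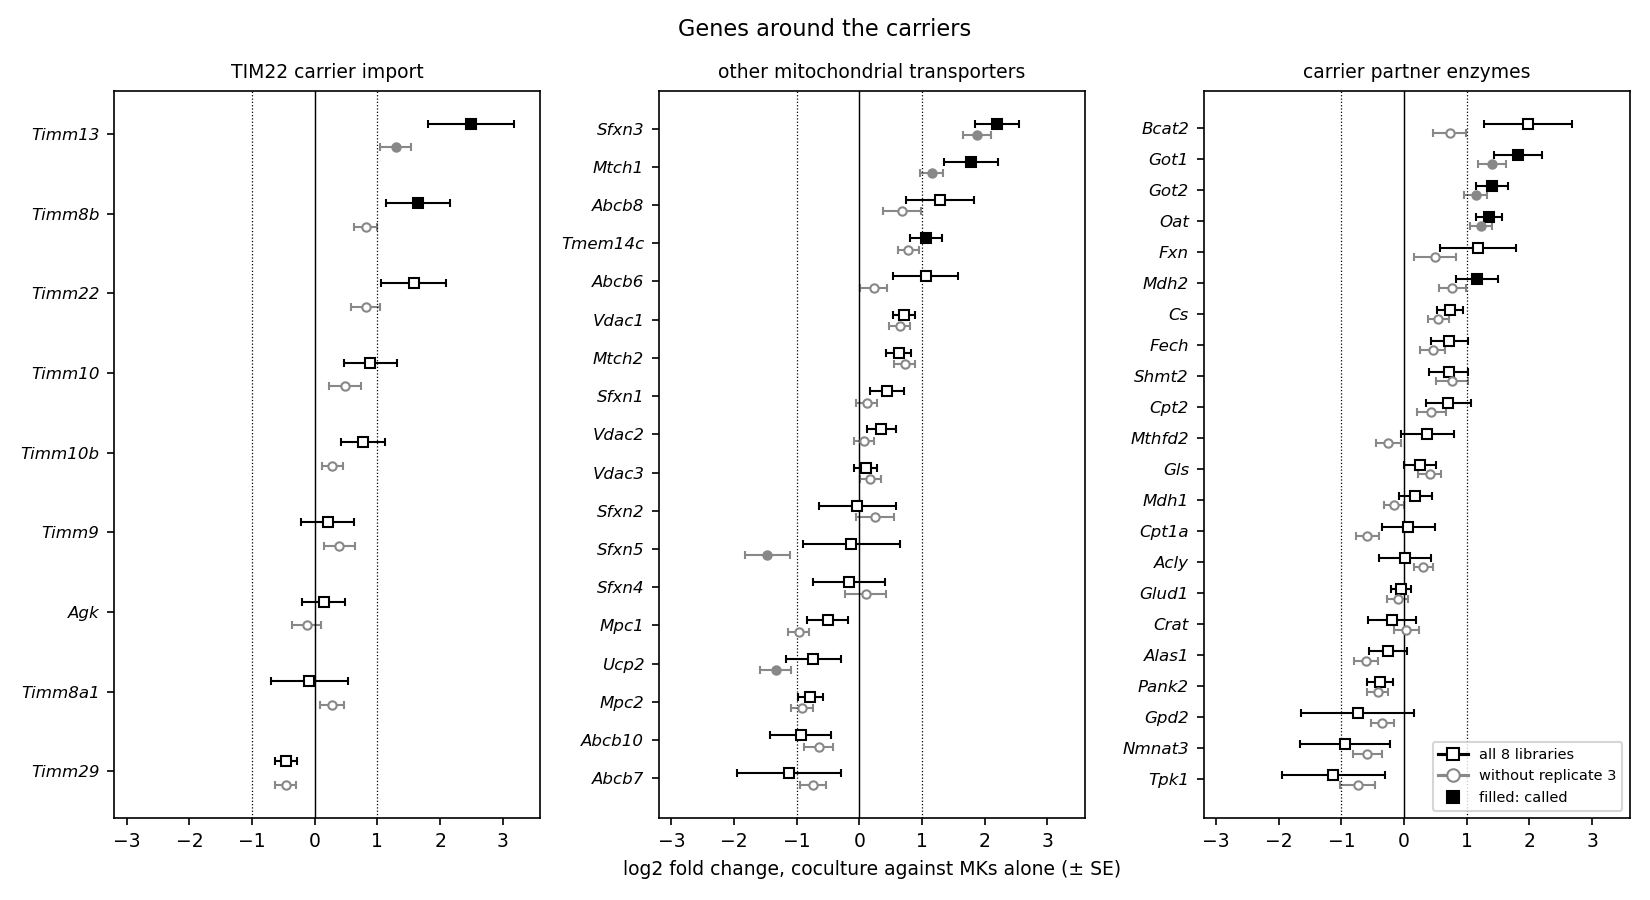
Log2 fold change of coculture against MKs alone, with its standard error, for genes of carrier import, other mitochondrial transporters and enzymes that work with carriers. Black squares are fits with all 8 libraries, grey circles are fits without replicate 3 of the cocultures, and filled symbols passed the fold, p and level cutoffs. Timm13, Sfxn3, Mtch1, Got1, Got2 and Oat are filled in both fits.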

How the data were processed

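RNA was prepared with a NucleoSpin kit and amplified with a low-input SMART-Seq HT kit. According to the methods, paired-end reads passed a fastp filter, kallisto quantified them against an mm10 transcriptome index, and the authors deposited raw counts per gene, without normalization. The summing and rounding of transcript values and the use of strand are not given in the sources used here, so overlapping genes and near-identical copies are uncertain. Groups and replicate numbers came from the labels. The batch in the authors' DESeq2 design is not named, so no covariate was used.

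Counts were tested with edgeR 4.0.16 in R 4.3.3 (TMM factors, filterByExpr, robust quasi-likelihood F test) on all genes and 8 libraries, and p-values were adjusted by Benjamini-Hochberg over all 11722 genes tested. CPM replaced TPM in the cutoffs. CPM are scaled by the TMM factors, and CPM per kilobase divide by the median length of coding transcripts in GENCODE M21 (GRCm38). Reads carry no molecular identifiers. Pairs of carriers were compared by the two-sided exact permutation test of log2 ratios of counts, with 0.5 added (scipy 1.17.1). Libraries of a group differed by more than sampling noise. Alternatives were DESeq2 1.42.0, other scalings, filters and thresholds, the replicate number as a block, and each library left out. The edgeR and DESeq2 fits were tested on simulated counts with known changes, and the permutation test on constructed values.

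The members and lists were chosen with earlier results of these data known. Named with values were the members called, the most abundant of each substrate class, the members of the pairs and those whose groups did not overlap, and of the other lists the called genes and the most abundant. Other genes named were chosen after their values were seen. The result of 1 member is not reported here. Promoters came from RefSeq, and no protein sequence was used here.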

Additional observations from a re-analysis of the deposited data

Results flagged for a closer look

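The 4 values of a named carrier or pair ratio within a group were searched for 1 that stood far from its neighbours. Such a value was found in 14 of 56 such groups. About 2.8 would come by chance if the groups were independent. They share libraries, and the ratios reuse the same genes, so the 14 cannot be judged against that number. In 11 of the 14 the value was that of coculture replicate 3. In that library log2(CPM + 1) stood apart on the high side at 7.85 for Slc25a11, 5.57 for Slc25a13 and 7.21 for Slc25a20. It stood apart on the low side at 0.14 for Slc25a16, 0.27 for Slc25a30 and 1.81 for Slc25a36, and at 0 for Slc25a37 and Slc25a40. The log2 ratios of counts that stood apart there were -8.06 for Slc25a37/Slc25a28, 4.51 for Slc25a33/Slc25a36 and 13.5 for Slc25a39/Slc25a40, of which the first and the last rest on a count of 0 with 0.5 added. In MKs alone, log2(CPM + 1) of Slc25a39 in replicate 1 (4.38) and of Slc25a40 in replicate 3 (3.17), and the log2 ratio of Slc25a33 to Slc25a36 in replicate 1 (-2.21), stood apart. The causes were not tested.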

How the results depend on the processing

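The 3 carriers called higher were 10 when libraries were scaled to MK and platelet markers and 1 with glmTreat. With a library left out they were 2 to 5 (2 without any 1 library of MKs alone, 5 without replicate 3 of the cocultures). Over all genes, edgeR called 1544 higher with TMM factors, 1489 with RLE factors, 3422 under scaling to the markers and 818 with glmTreat. Without a library of MKs alone it called 1071 to 1106 of all genes higher, and without replicate 3 of the cocultures 2530. Carriers called lower were 0 under every alternative run on all 8 libraries and 0 to 2 with a library left out. Over all genes, 857 were called lower with TMM factors, 340 under scaling to the markers, 303 with glmTreat and 1890 without that replicate 3. TIM22 import genes called higher were 1 with RLE factors, 5 under scaling to the markers, 0 under glmTreat or the replicate block, and between 0 and 2 with any single library removed. Other transporters called higher were 7 when scaled to the markers and 1 with glmTreat, 1 to 3 with a library left out, and 0 to 2 called lower. Partner enzymes called higher were 11 when scaled to the markers and 0 with glmTreat. Under scaling to the markers the median over all genes went from 0.034 to 1.09 (log2 fold change) and the share of higher genes among all calls from 64.3% to 91.0%. It turned Slc25a5 (1.08), Slc25a12 (1.08), Slc25a23 (0.24), Slc25a33 (1.09), Slc25a42 (0.55) and Slc25a46 (1.12) positive, all within 0.032 of the median over all genes or below it.

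The replicate numbers were not taken as pairs, since deviations of same-numbered libraries correlated at 0.37, 0.020, 0.15 and 0.028 and nothing else ties them. With the replicate number as a block, edgeR called 3 carriers higher (8.11%, against 9.35% of all genes) and 0 lower (against 4.89% of all genes). Slc25a30 (-0.25) and Slc25a40 (-0.060) then turned negative. The sign-flip test within replicate numbers gave 2.30 for Slc25a4 to Slc25a5 and -1.40 for Slc25a12 to Slc25a13, each with an exact p of 0.125, the smallest it allows. With a library left out, the log2 ratio differences ran from 2.18 to 2.37 for Slc25a4 to Slc25a5, from -1.70 to -1.12 for Slc25a12 to Slc25a13, from -0.76 to 1.43 for Slc25a33 to Slc25a36 and from -2.61 to 0.13 for Slc25a16 to Slc25a42, where the smallest exact p that 3 against 4 libraries allow is 0.0571. Log2 fold changes ran from -0.17 to 0.063 for Slc25a5, -0.12 to 0.53 for Slc25a11, -0.064 to 0.18 for Slc25a24, -0.15 to 0.66 for Slc25a28 and -0.31 to 0.0064 for Slc25a46. In single genes, 226 values kept direction and side of the threshold, 6 newly passed, 4 no longer passed and 16 reversed. The causes were not tested.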
